A study of Mus musculus with 6 samples.

Results

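The primary cilium and cystic kidney genes were described here as the 37 protein-coding genes, of 30315 genes listed, whose names belong to the intraflagellar transport (Ift), Bardet-Biedl (Bbs), nephronophthisis (Nphp), tectonic (Tctn) or dynein-2 (Dync2) families, together with Pkd1, Pkd2, Pkhd1, Mks1, Evc, Evc2, Cep290 and Arl13b. The rule reads gene names and no measured value, but the members were chosen with earlier results of these data known. By role they comprised 11 subunits of the IFT-B complex, 3 of IFT-A, 2 of the dynein-2 motor, 6 of the BBSome, 2 of the BBS chaperonin, 7 proteins of the transition zone, 3 polycystic disease genes and 3 proteins of the ciliary membrane. Tctn2 carried a matching name but was listed as a processed transcript and was left out. RNA-Seq had been applied to primary renal tubular epithelial cells (TECs) of C57BL/6 mouse kidney in 6 libraries, 3 with an siRNA against Sox9 (siSox9) and 3 with a negative control siRNA (siNC). All 6 cultures underwent hypoxia/reoxygenation (H/R), which meant 6 h in medium without glucose under 1.0% O2 followed by 18 h of reoxygenation in complete medium, and the siRNAs were transfected 12 h ahead. No library without H/R was analysed here, so the comparison below is one of siRNAs within injured cells. The labels do not say whether the 3 libraries of a group came from separate animals or cultures, so the p-values measure the spread between these libraries, which may be technical.

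The primary cilium is a single microtubule-based antenna that grows from the mother centriole of most resting cells and is taken apart when a cell enters division. Its parts are carried along the axoneme by intraflagellar transport, in which IFT-B rides outward with kinesin-2 and IFT-A returns with dynein-2, while the BBSome moves membrane proteins and the transition zone at the base acts as a gate. In the kidney tubule the cilium bears polycystin-1, polycystin-2 and fibrocystin, the products of Pkd1, Pkd2 and Pkhd1, and inherited defects of many of these genes give cystic kidneys.

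The targeted gene was examined first. Sox9, a transcription factor induced in injured tubules, was listed at 8.93, 8.61 and 9.07 FPKM with siSox9 and 25.7, 26.5 and 25.6 FPKM with siNC. Its mean with siSox9 was 34.2% of that with siNC (log2 fold change -1.45, SE 0.034, limma adjusted p = 7.03e-06), so the knockdown left part of the transcript in place. Depth was alike, with 23893197 to 25725743 whole reads per library as recovered from the deposited values. Epithelial markers were high in every library (Krt8 2029 to 2190 FPKM, Epcam 123 to 141), and so was the smooth muscle and myofibroblast actin Acta2 (652 to 741), and the kidney cadherin Cdh16 stood at 98.1 to 130 FPKM, whereas the segment markers Slc34a1 and Aqp2 stood at or near 0. Of 9 tubule genes tested, 1 passed (Cdh16, higher). Of the other marker lists, 0 of 2 fibroblast genes tested, 0 of 1 endothelial gene, 1 of 7 macrophage genes (Lyz2, higher) and 2 of 2 podocyte genes (Podxl and Synpo, lower, with Nphs1 at 0 in all libraries) passed the test. Summed FPKM with siSox9 and siNC spanned 660.1 to 713 and 711 to 750.0 for fibroblast, 3.96 to 4.34 and 4.55 to 5.85 for endothelial, 180.2 to 201 and 183 to 186 for macrophage, and 12.5 to 13.9 and 18.8 to 19.5 for podocyte markers. Acta2 made up nearly all of the fibroblast sum, so the other fibroblast markers were low. All 20 cell cycle genes were lower with siSox9, at a summed 212 to 226 FPKM against 313 to 321 FPKM. The part of these differences in the results below was not tested.

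Knockdown of Sox9 was accompanied by lower transcripts of a share of the cilium genes and a higher one of Pkhd1. Of the 37 genes, 36 reached the minimum mean of 1 FPKM (fragments per exon length and library size). Past a limma adjusted p of 0.05, 13 of these 36 were lower with siSox9 (36.1%), against 17.6% of the 12009 genes tested, and 1 was higher (2.78%), against 12.8%. The lower genes included Evc, Pkd2, Bbs1, Nphp4, Ift27, Bbs9, Pkd1, Ift57, Ift81, Ift140, Ift122 and Ift22, and the higher gene was Pkhd1. The remaining 22 did not pass. The changes were small, with a median log2 fold change of -0.099 over the 36 genes and -0.014 over all genes, on the log2(FPKM + 1) scale, which understates the change of low genes. A log2 fold change below 0 was found for 29 of the 36. All siSox9 libraries lay below all siNC libraries for 16 genes, a pattern seen for 26.1% of all genes tested, and all lay above for 1, a pattern seen for 20.2%. Fewer cells bearing a transcript and less of it per cell cannot be told apart in these bulk libraries.

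Limits of the filter and the scale bear on these counts. Bbs9, Bbs1 and Nphp4 stood just above the minimum and reached it through the siNC libraries, since their siSox9 means were 0.844, 0.869 and 0.886 FPKM. With a mean of at least 1 FPKM asked of both groups, 10 of 33 cilium genes were lower (30.3%) and 17.5% of 11718 genes in all. When each library was instead centred on the median gene, 11 of the 36 were lower (30.6%, against 14.7% of all genes) and 1 higher. The split over all genes turned from 1532 higher and 2118 lower to 1959 higher and 1765 lower. Quantile normalization also gave 11 lower and 1 higher of the 36, beside 15.0% and 15.1% of all genes. The count of 13 fell to 8 without siSox9 replicate 2, to 8 without siSox9 replicate 3 and to 7 without siNC replicate 3. These were 22.2%, 22.2% and 19.4% of the 36, beside 12.3%, 13.7% and 13.0% of all genes lower in the same fits (main 17.6%). Evc, Ift27, Ift57, Nphp4, Pkd2 and Pkhd1 passed in each of the 14 alternatives that tested them, and Ift81 and Pkd1 in all but the one on TPM values. Calls were lost under 11 alternatives for Ift122, 9 for Ift22, 8 for Bbs9, 5 for Ift140 and 4 for Bbs1, with limma adjusted p up to 0.174.

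**Figure D1:**
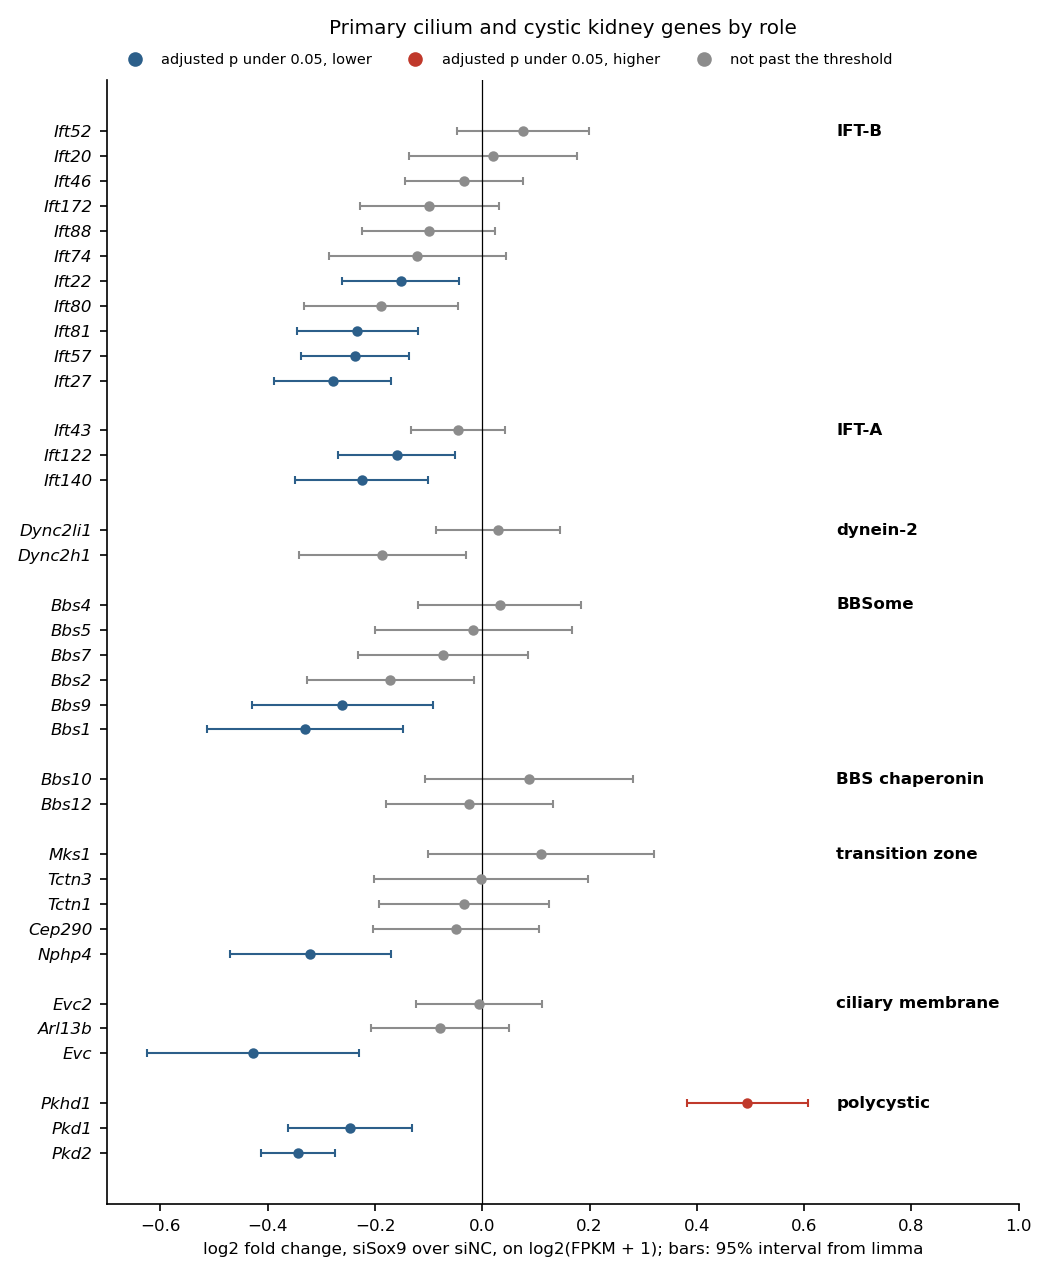
Log2 fold change (siSox9 over siNC, log2(FPKM + 1) scale, horizontal axis) of 35 of the 36 cilium and cystic kidney genes tested, grouped by role, with 95% intervals from limma; blue and red mark 12 lower genes and the 1 higher gene past an adjusted p of 0.05 and grey the other 22. Evc (-0.43) and Pkhd1 (0.49) lie at the ends of the range.

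The promoters of the 37 genes were read for sequence shared beyond the names. RefSeq windows of 300 bases (GRCm38.p6, 250 before and 50 after the annotated start) were matched for 31 of them, and not, among others, for Ift80, Ift81, Ift122 and Dync2li1. The X-box, the motif of the RFX transcription factors that is known from cilium gene promoters, has GTTGCC as a half-site, and these letters were found on either strand in 15 of the 33 windows of these genes (45.5%) and in 12.5% of all 32851 windows. The half-site occurred in 6 of the 10 lower genes with a window (Bbs1, Evc, Ift140, Ift27, Ift57 and Nphp4) and in 9 of the other 21 (Arl13b, Bbs5, Bbs7, Dync2h1, Ift172, Ift88, Mks1, Tctn1 and Tctn3). A full X-box, with both half-sites 0 to 3 bases apart, was found in 4 of the 33 windows (12.1%; Bbs1, Ift57, Tctn1 and Tctn3, each of which also holds the letters above) and in 1.53% of all. The letters ACAATGG of a SOX site were in none of these 33 windows and in 3.66% of all. A match describes the letters of a window and says nothing of binding. The stretches around the matches are shown for 3 lower genes and for 3 genes that did not pass the test, 5′ to 3′ on the strand of the gene, with the motif in capitals (the half-site or its complement, and the full X-box in Ift57 and Tctn3):
Evc (chr5:37337029-37337094, minus strand, motif 177 bases before the start): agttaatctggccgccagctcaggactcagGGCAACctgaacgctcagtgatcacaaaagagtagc
Ift140 (chr17:25015947-25016012, plus strand, motif 103 bases before the start): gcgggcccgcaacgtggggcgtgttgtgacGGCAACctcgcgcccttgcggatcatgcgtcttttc
Ift57 (chr16:49699177-49699232, plus strand, motif 73 bases before the start): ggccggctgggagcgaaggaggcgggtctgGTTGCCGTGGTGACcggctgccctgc
Arl13b (chr16:62847186-62847251, minus strand, motif 175 bases before the start): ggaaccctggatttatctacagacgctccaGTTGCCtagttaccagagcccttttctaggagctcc
Mks1 (chr11:87853161-87853214, plus strand, motif 18 bases before the start): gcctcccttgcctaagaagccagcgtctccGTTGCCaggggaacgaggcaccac
Tctn3 (chr19:40612329-40612401, minus strand, motif 127 bases before the start): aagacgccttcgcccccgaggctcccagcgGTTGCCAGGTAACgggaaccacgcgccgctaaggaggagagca
The half-site thus stood upstream both of genes that were lower with siSox9 and of genes that were not past the threshold.

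The IFT-B complex, which carries cargo toward the ciliary tip, had 4 of 11 subunits lower (36.4%) and 0 higher. Over all genes tested, 17.6% were lower and 12.8% higher. Ift27 (chr15:78159465-78174108), a small GTPase that also helps the BBSome leave the cilium, was at 7.11, 7.59 and 7.82 FPKM with siSox9 and 9.03, 9.17 and 9.74 FPKM with siNC. The groups did not overlap, and the siSox9 mean was 80.6% of the siNC mean (log2 fold change -0.28, SE 0.046, limma adjusted p = 0.00464). Ift57 (chr16:49699233-49765126), a subunit at the edge of the complex whose promoter is shown above, was at 3.60, 3.66 and 3.85 FPKM with siSox9 and 4.67, 4.44 and 4.51 FPKM with siNC. Here too the siSox9 libraries all lay lower (log2 fold change -0.24, SE 0.043, limma adjusted p = 0.00633). Ift81 (chr5:122550204-122614518), which binds tubulin together with Ift74, was at 4.01, 3.65 and 4.08 FPKM with siSox9 and 4.91, 4.69 and 4.72 FPKM with siNC, again without overlap (log2 fold change -0.23, SE 0.048, limma adjusted p = 0.0112). Ift22 (chr5:136908150-136915404), another small GTPase, changed least of the 4, from 5.72, 5.36 and 5.74 FPKM with siNC to 4.71, 4.97 and 5.16 FPKM with siSox9 (log2 fold change -0.15, SE 0.046, limma adjusted p = 0.0442). Ift88, the core subunit whose mutation gives the classical mouse model of cystic kidney, did not pass the test. It was at 3.35, 2.96 and 3.25 FPKM with siSox9 and 3.56, 3.35 and 3.55 FPKM with siNC, and the highest siSox9 library reached the siNC range (log2 fold change -0.10, SE 0.053, limma adjusted p = 0.196, 95% interval -0.22 to 0.024). The partner of Ift81 in tubulin binding, Ift74, had a log2 fold change -0.12, with 7.29 to 9.08 FPKM among the siNC libraries alone. Its value was -0.20 and passed without siNC replicate 1 (limma adjusted p = 0.0239) and was -0.057 without siNC replicate 3 (limma adjusted p = 0.556). Ift80 was below siNC in all 3 siSox9 libraries and just missed the threshold (log2 fold change -0.19, SE 0.061, limma adjusted p = 0.0531), while limma voom on its recovered reads passed it (log2 fold change -0.32, adjusted p = 0.0025). The other members, Ift172, Ift46, Ift20 and Ift52, had log2 fold changes from -0.099 to 0.076, and Ift20, which also works at the Golgi, was the most abundant of the complex at a mean of 19.5 FPKM.

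Of the retrograde transport genes, 2 of 3 IFT-A subunits and 0 of 2 dynein-2 subunits were lower, beside 17.6% of all genes tested. Ift140 (chr17:25016091-25099495) was at 2.91, 2.79 and 2.59 FPKM with siSox9 and 3.41, 3.26 and 3.51 FPKM with siNC, with no overlap (log2 fold change -0.23, SE 0.053, limma adjusted p = 0.0174). Ift122 (chr6:115853470-115926699), its partner in the IFT-A core, was at 2.32, 2.35 and 2.30 FPKM with siSox9 and 2.78, 2.66 and 2.70 FPKM with siNC, and the replicates of each group lay close together (log2 fold change -0.16, SE 0.046, limma adjusted p = 0.0374). Ift43, a peripheral subunit with a mean of 23.3 FPKM, did not pass (log2 fold change -0.045, 95% interval -0.13 to 0.042). The motor heavy chain Dync2h1 was at 1.04, 1.08 and 1.10 FPKM with siSox9 and 1.26, 1.46 and 1.37 FPKM with siNC. All its siSox9 libraries were lower, but it missed the threshold (log2 fold change -0.19, SE 0.066, limma adjusted p = 0.0718), while limma voom on its recovered reads passed it (adjusted p = 0.00175). Its light intermediate chain Dync2li1 had the highest level of all 37 genes, 25.4 FPKM on average, and the groups overlapped (log2 fold change 0.029, 95% interval -0.086 to 0.14).

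**Figure D2:**
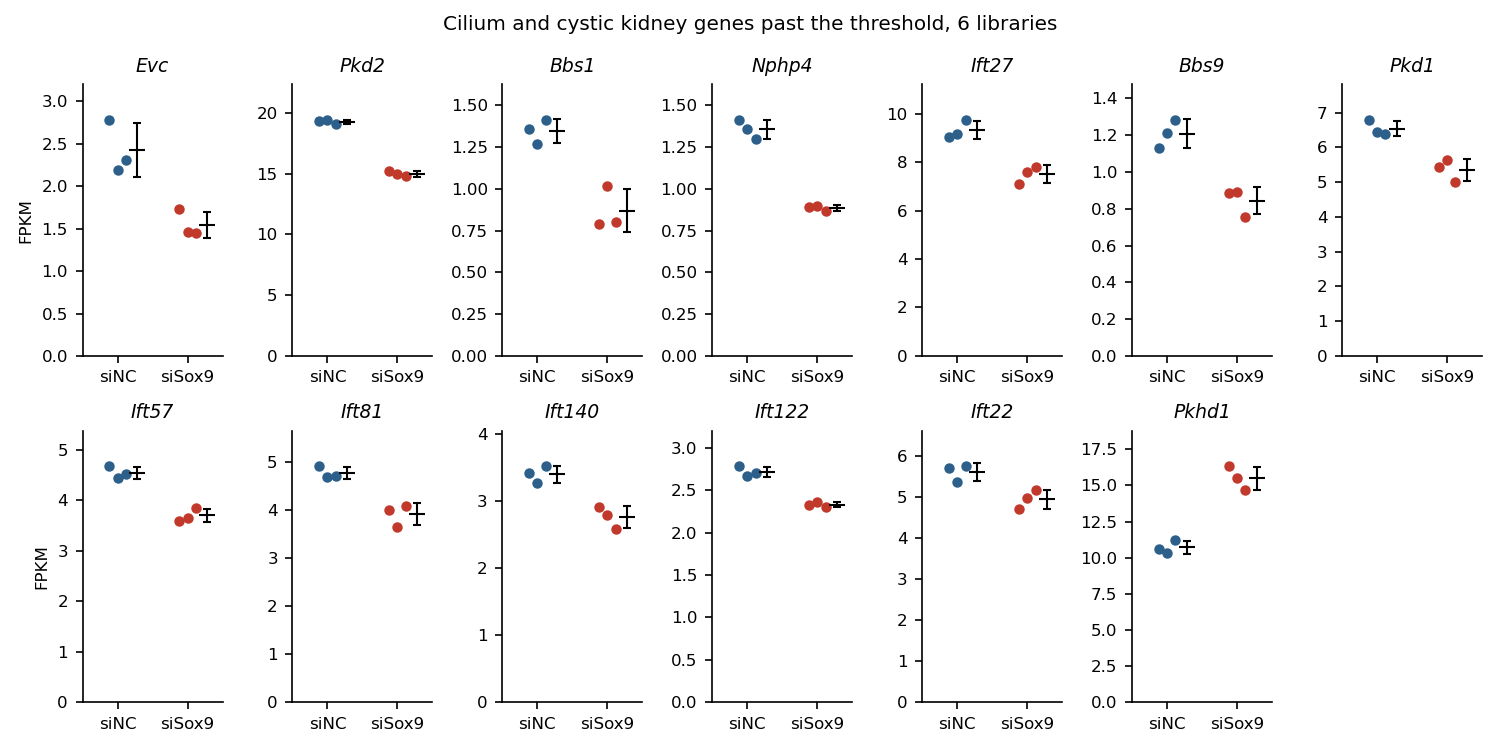
FPKM (vertical axes from 0) in each siNC (blue) and siSox9 (red) library of 13 of the 14 genes past the threshold, ordered from Evc, the largest fall, to Pkhd1, with group means and SD (n = 3) as bars beside the points. The groups do not overlap in any panel.

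In the BBSome, the coat that moves signalling receptors into and out of the cilium, 2 of 6 subunits were lower. This was 33.3%, against 17.6% of all genes tested. Bbs1 (chr19:4886898-4906627), the subunit that contacts the small GTPase Arl6, was at 0.787, 1.02 and 0.802 FPKM with siSox9 and 1.36, 1.27 and 1.41 FPKM with siNC. It fell to 64.5% of the siNC mean (log2 fold change -0.33, SE 0.077, limma adjusted p = 0.0176). Bbs9 (chr9:22475715-22888280), a scaffold subunit, was at 0.884, 0.889 and 0.758 FPKM with siSox9 and 1.13, 1.21 and 1.28 FPKM with siNC, which was 69.8% of siNC (log2 fold change -0.26, SE 0.072, limma adjusted p = 0.0321). Both are low transcripts near the 1 FPKM minimum. Their siSox9 means, 0.869 and 0.844 FPKM, were under it, so both entered the test through the siNC libraries. Bbs2 was lower in all 3 siSox9 libraries without passing (log2 fold change -0.17, SE 0.066, limma adjusted p = 0.0919), and passed without siNC replicate 1 (log2 fold change -0.22, limma adjusted p = 0.0466). For Bbs7, Bbs5 and Bbs4 the groups overlapped, with log2 fold changes of -0.073, -0.017 and 0.032. The chaperonin-like Bbs10 and Bbs12, which help the BBSome assemble, did not pass either (0.087 and -0.024).

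At the transition zone, 2 of the 6 genes tested were lower (33.3%, against 17.6% of all genes), Nphp4 among them, and 4 did not pass. Nphp4 (chr4:152476706-152563183), a gene of nephronophthisis, was at 0.894, 0.899 and 0.866 FPKM with siSox9 and 1.41, 1.36 and 1.30 FPKM with siNC. This was 65.4% of the siNC mean, with little spread within a group (log2 fold change -0.32, SE 0.064, limma adjusted p = 0.00968). Its siSox9 mean of 0.886 FPKM was under the minimum, which it reached through the siNC libraries. Cep290, which links the axoneme to the membrane, was at 1.72, 1.64 and 1.71 FPKM with siSox9 and 1.59, 1.92 and 1.84 FPKM with siNC. The groups overlapped (log2 fold change -0.049, SE 0.066, limma adjusted p = 0.611, 95% interval -0.20 to 0.11), and 7.58% of its exon bases are shared with the opposite-strand gene 4930430F08Rik. Mks1, the gene of Meckel syndrome, was at 1.33, 1.20 and 1.43 FPKM with siSox9 and 1.30, 1.23 and 0.925 FPKM with siNC, with the lowest value in a siNC library (log2 fold change 0.11, SE 0.090, limma adjusted p = 0.397, 95% interval -0.10 to 0.32). Tctn1 and Tctn3 stood at 1.83 against 1.89 FPKM and 2.88 against 2.89 FPKM on average with siSox9 against siNC, with log2 fold changes of -0.035 and -0.0022, and 19.0% of the exon bases of Tctn1 overlap Hvcn1.

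Evc and Evc2, the genes of Ellis-van Creveld syndrome, encode partner proteins at the base of the ciliary membrane that act in Hedgehog signalling. They lie head to head on chromosome 5 (Evc chr5:37289098-37336894, minus strand, and Evc2 chr5:37338499-37425055, plus strand), with 1604 bases between them. Evc was at 1.73, 1.46 and 1.45 FPKM with siSox9 and 2.78, 2.19 and 2.31 FPKM with siNC, the largest fall of the 37 genes (log2 fold change -0.43, SE 0.084, limma adjusted p = 0.00897), and its siSox9 mean was 63.7% of siNC. Evc2 was at 6.39, 6.34 and 5.76 FPKM with siSox9 and 6.44, 5.95 and 6.18 FPKM with siNC, with overlapping groups (log2 fold change -0.0056, SE 0.050, limma adjusted p = 0.945, 95% interval -0.12 to 0.11). Within a library the ratio of Evc to Evc2 was 0.270, 0.231 and 0.251 with siSox9 and 0.432, 0.368 and 0.373 with siNC. The groups did not overlap, and the log2 ratio differed by -0.64 (exact permutation test, two-sided, p = 0.1, the smallest that 3 libraries against 3 allow; the pair was chosen after its values were seen). Arl13b, a small GTPase of the ciliary membrane much used as a ciliary marker, was at 4.50, 4.51 and 4.06 FPKM with siSox9 and 4.60, 4.44 and 4.94 FPKM with siNC and did not pass (log2 fold change -0.079, SE 0.055, limma adjusted p = 0.316, 95% interval -0.21 to 0.050).

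The polycystic kidney genes all passed the threshold, Pkd1 and Pkd2 lower and Pkhd1 higher, beside 17.6% of all genes lower and 12.8% higher. Pkd1 (chr17:24549950-24596514), which encodes the large receptor-like polycystin-1, was at 5.43, 5.63 and 5.00 FPKM with siSox9 and 6.79, 6.45 and 6.37 FPKM with siNC. Every siSox9 library was lower, at 81.9% of siNC on average (log2 fold change -0.25, SE 0.049, limma adjusted p = 0.00967). Its exons share 693 bases (3.98%) with Tsc2 on the opposite strand, and the strand setting of the counting is not given in the sources used here. Pkd2 (chr5:104459450-104505819), which encodes the cation channel polycystin-2, was at 15.2, 15.0 and 14.8 FPKM with siSox9 and 19.3, 19.4 and 19.1 FPKM with siNC. The replicates were tight, the siSox9 mean was 77.7% of siNC, and its adjusted p was the smallest of the 36 genes (log2 fold change -0.34, SE 0.029, limma adjusted p = 0.000322). Pkhd1 (chr1:20057779-20618064), the gene of autosomal recessive polycystic kidney disease, was at 16.3, 15.5 and 14.7 FPKM with siSox9 and 10.6, 10.3 and 11.2 FPKM with siNC. All siSox9 libraries lay higher, at 1.45-fold the siNC mean (log2 fold change 0.49, SE 0.048, limma adjusted p = 0.000523). The ratio of Pkhd1 to Pkd2 within a library was 1.07, 1.04 and 0.995 with siSox9 and 0.548, 0.532 and 0.588 with siNC. That of Pkhd1 to Pkd1 was 3.002, 2.75 and 2.94 with siSox9 and 1.56, 1.60 and 1.76 with siNC. The log2 ratios differed between the groups by 0.90 and 0.82 (exact permutation test, two-sided, p = 0.1 for each, chosen after their values were seen). Benjamini-Hochberg adjustment over the 3 ratios tested leaves 0.1. Pkhd1 was higher, and Pkd1 and Pkd2 lower, in every siSox9 library than in every siNC library. The separation of these ratios and its p-value were therefore fixed by those values and add no evidence to them.

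**Figure D3:**
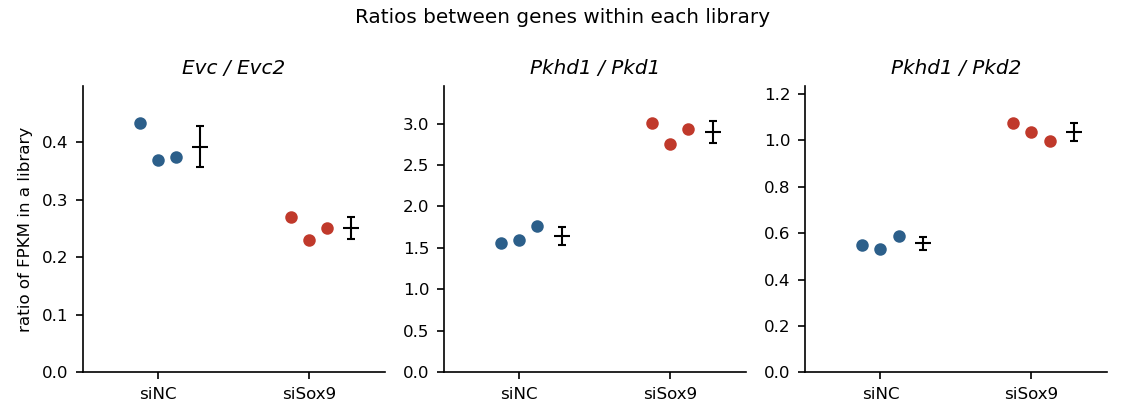
Ratio of FPKM values within each siNC (blue) and siSox9 (red) library for Evc over Evc2, Pkhd1 over Pkd1 and Pkhd1 over Pkd2 (vertical axes from 0), with group means and SD (n = 3) beside the points. The siSox9 libraries all lie below siNC for the first ratio and all above for the others. For the others this follows from Pkhd1 being higher, and Pkd1 and Pkd2 lower, in every siSox9 library.

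Levels of the 36 genes tested were modest. Their mean FPKM over the 6 libraries ran from 1.03 (Bbs9) to 25.4 (Dync2li1) with a median of 3.38, below the 7.41 of all genes tested. Next to Dync2li1 came Ift43 (23.3), Ift20 (19.5), Pkd2 (17.1), Ift52 (13.8) and Pkhd1 (13.1). Per exon length, transcripts of Pkd2 exceeded those of Pkd1 in every library. With siNC, Pkd2 also exceeded Pkhd1 in each library, whereas with siSox9 their values were close, 15.2, 15.0 and 14.8 FPKM for Pkd2 and 16.3, 15.5 and 14.7 FPKM for Pkhd1.

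Cilium genes beyond the named families were examined with a further list of 112 genes, likewise chosen with earlier results of these data known. It comprised partners of the same complexes, motors, signalling proteins, basal body, disassembly and other cystic kidney genes. Of the 95 tested, 29 were lower (30.5%, against 17.6% of all genes) and 2 higher (2.11%, against 12.8%), with a median log2 fold change of -0.089 (-0.014 over all genes). Without the genes of cilium disassembly, several of which are mitotic kinases, 22 of 84 were lower (26.2%, against the same 17.6%) and 2 higher. The largest fall on the log2(FPKM + 1) scale was that of Tmem231, a membrane protein of the transition zone, at 4.13, 4.42 and 4.06 FPKM with siSox9 and 9.09, 8.07 and 8.46 FPKM with siNC (log2 fold change -0.87, SE 0.052, limma adjusted p = 9.90e-05). Anks6, a partner of Nek8 in the inversin compartment, was at 1.11, 1.05 and 0.935 FPKM with siSox9 and 2.06, 1.91 and 2.07 FPKM with siNC (log2 fold change -0.57, SE 0.065, limma adjusted p = 0.000967), and Tmem107, a further transition zone protein, at 2.07, 1.98 and 2.26 FPKM with siSox9 and 3.001, 2.84 and 3.67 FPKM with siNC (log2 fold change -0.42, SE 0.083, limma adjusted p = 0.00906). The remaining genes of large fall were kinases of mitosis and cilium disassembly. Plk1 was at 7.11, 7.02 and 7.61 FPKM with siSox9 and 13.7, 12.4 and 14.7 FPKM with siNC (log2 fold change -0.82), Nek2 at 1.25, 1.41 and 1.43 FPKM with siSox9 and 3.01, 2.89 and 2.88 FPKM with siNC (log2 fold change -0.73) and Aurka at 6.47, 7.09 and 6.93 FPKM with siSox9 and 11.1, 9.42 and 9.57 FPKM with siNC (log2 fold change -0.49; limma adjusted p from 0.000209 to 0.00174 for the 3), beside the 20 cell cycle genes that were all lower.

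Among the partners of each complex, 2 of 7 IFT-B partners (Ttc26 and Ttc30b), 1 of 4 IFT-A partners (Wdr35), 2 of 5 BBSome partners (Arl6 and Lztfl1) and 2 of 8 motor subunits (Dynlrb1 and Wdr34) were lower and none higher, beside 17.6% of all genes that were lower. Arl6, the GTPase that recruits the BBSome through Bbs1, stood at 6.17, 6.36 and 5.69 FPKM with siSox9 and 7.62, 8.49 and 7.94 FPKM with siNC. It was lower as Bbs1 was, without overlap (log2 fold change -0.35; named after its values were seen). Of the membrane and signalling proteins 4 of 9 were lower (Pde6d, Gpr161, Arl3 and Unc119), of which Pde6d, Arl3 and Unc119 serve the delivery of lipidated proteins to the cilium. The transition zone list had 4 of 17 lower (23.5%) and the basal body and assembly list 4 of 18 lower (22.2%) and 1 higher, both near the share over all genes, and the disassembly list had 7 of 11 lower (63.6%). Kif3a, the kinesin-2 motor subunit of outward transport, did not pass (10.7, 11.3 and 10.4 FPKM with siSox9 and 10.8, 10.8 and 10.6 FPKM with siNC; 95% interval -0.086 to 0.098). Neither did the IFT-A subunit Ttc21b (3.34, 3.72 and 3.64 FPKM with siSox9 and 3.43, 3.51 and 3.97 FPKM with siNC; log2 fold change -0.021). The transition zone protein Tmem67 did not pass either, although its groups did not overlap (1.08, 1.07 and 1.16 FPKM with siSox9 and 1.23, 1.24 and 1.36 FPKM with siNC; log2 fold change -0.11). The higher genes were Rab11a, of recycling endosomes that feed the ciliary membrane (34.7, 36.5 and 36.3 FPKM with siSox9 and 33.0, 33.1 and 32.4 FPKM with siNC; log2 fold change 0.12, SE 0.032, limma adjusted p = 0.0261), and Ganab.

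Of the other genes of cystic kidney disease, 3 of 16 were lower (18.8%, near the 17.6% of all genes) and 1 higher (6.25%, against 12.8%), with a median log2 fold change of -0.0053. Glis3, Vhl and Sec61b were the lower ones. Ganab, a glucosidase subunit needed for the maturation of polycystins in the endoplasmic reticulum, was at 76.1, 80.1 and 73.8 FPKM with siSox9 and 61.1, 55.3 and 60.9 FPKM with siNC, a rise without overlap (log2 fold change 0.37, SE 0.050, limma adjusted p = 0.00192). Bicc1, an RNA-binding protein of cystic disease, was at 71.2, 71.4 and 67.3 FPKM with siSox9 and 68.6, 65.6 and 68.3 FPKM with siNC, with overlapping groups (log2 fold change 0.051, SE 0.035, limma adjusted p = 0.316).

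**Figure D4:**
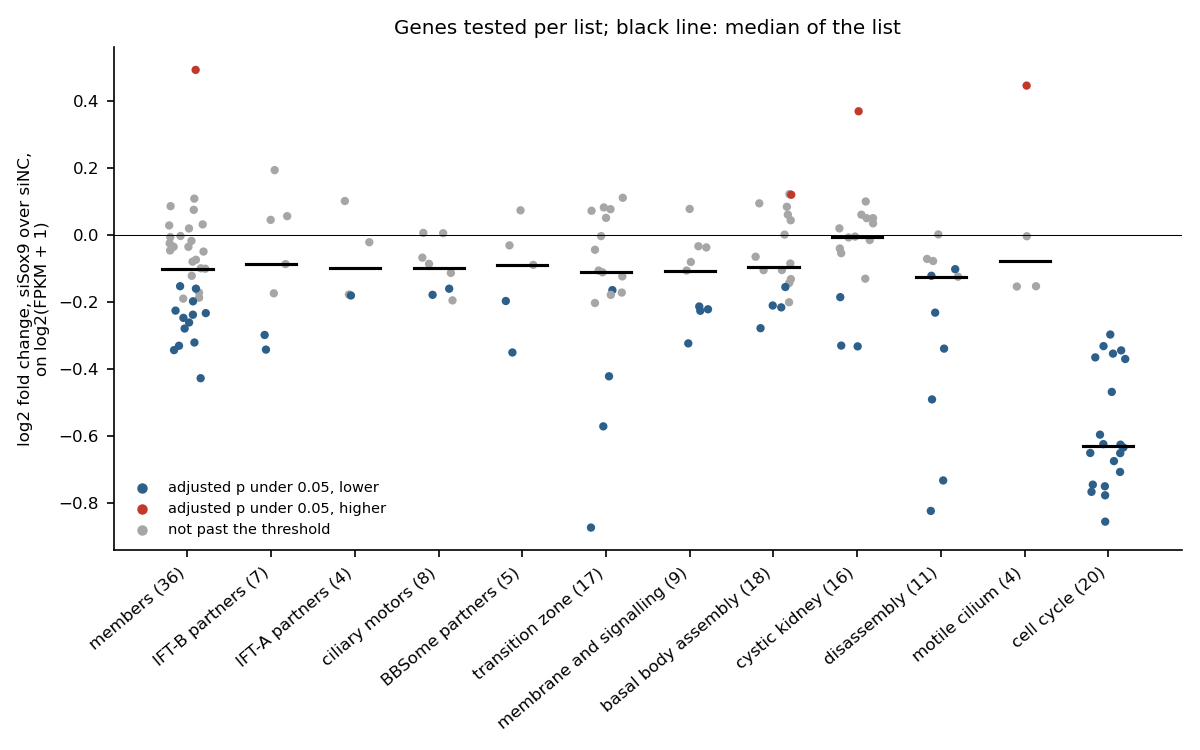
Log2 fold change (siSox9 over siNC, log2(FPKM + 1) scale) of each gene tested in the 36 cilium and cystic kidney genes and in 11 other lists, with the number tested in brackets and the median of each list as a black line; blue and red mark genes past an adjusted p of 0.05. The cilium lists have medians between -0.12 and -0.0053, and the cell cycle list -0.63.

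The deposited table also holds Gene Ontology cellular component terms. A term naming the cilium was attached to 36 of the 37 genes. Of the 132 other genes tested with such a term and in neither of the lists above, 33 were lower (25.0%, against 17.6% of all genes) and 7 higher (5.30%, against 12.8%), with a median log2 fold change of -0.063. The motile cilium list had 4 of 20 genes above the minimum, 3 of them with a log2 fold change below 0 (median -0.078). Past the threshold, 0 of the 4 were lower and 1 was higher, beside 17.6% and 12.8% of all genes. This was Foxj1, a transcription factor of motile ciliogenesis, at 34.5, 35.7 and 33.2 FPKM with siSox9 and 26.3, 24.0 and 24.7 FPKM with siNC (log2 fold change 0.45, SE 0.044, limma adjusted p = 0.000531), while Mcidas was at 0 in all libraries and Dnah5, an axonemal dynein of motile cilia, at 0.0348 to 0.111 FPKM. Rfx3, an RFX factor of cilium genes, was under the minimum, at 0.775, 0.657 and 0.671 FPKM with siSox9 and 1.11, 1.00 and 1.02 FPKM with siNC (Foxj1 and Rfx3 were named after their values were seen).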

How the data were processed

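RNA-Seq of mouse TECs was analysed in 6 libraries. The values deposited by the authors are FPKM, 1 per gene in each library, and no other scaling between libraries is stated. The submitters' notes name Bowtie2 2.2.3, HISAT2 2.1.0, TopHat2 and mm9 without roles, whereas 93.3% of the 30246 genes found in GENCODE M21 had their GRCm38 position in the table. Columns of the siSox9 libraries are named for a numbered siRNA that is not the control. Each per-sample column was used.

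Groups were compared in R 4.3.3 by limma 3.58.1, with a trended prior variance, on the log2 of FPKM plus 1. Genes entered with a mean of 1 FPKM or more, and calls were made at a Benjamini-Hochberg adjusted p under 0.05 over all genes tested and no replicate block; the fit was tested on simulated data. Whole reads were recovered from FPKM and exon lengths (27948 genes whole in all 6 libraries within 0.02 reads; of the 37 genes 32, without Bbs1, Dync2li1, Ift140, Ift27 and Pkd1) and entered limma voom as an alternative. The other alternatives were a pseudocount of 0.1, no minimum, a minimum of 5 FPKM, TPM, median centring, quantile normalization, a replicate block and leaving out each library. Values in every library are given for each member past the threshold and for Pkd1, Pkd2, Pkhd1, Arl13b, Cep290, Mks1, Ift88 and Dync2h1, and, of the other cilium list, for the 6 largest rises and falls past the threshold and for Kif3a, Ttc21b, Tmem67 and Bicc1; some genes of these rules are counted but not reported here by name. The members and lists were chosen with earlier results of these data known.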

Additional observations from a re-analysis of the deposited data

How the results depend on the processing

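Of 14 alternatives, the count of cilium genes higher stayed at 1 in each, every cell cycle gene tested was lower in each (20 of 20, but 18 of 18 with a minimum of 5 FPKM and 19 of 19 with limma voom), and Sox9 kept its direction and call. The count of 13 lower genes became 7 of 37 with no minimum, 5 of 13 with a minimum of 5 FPKM and 6 of 36 with TPM. In these fits 5.63%, 18.4% and 11.2% of all genes were lower. The smaller number of genes tested accounts for part of the second. With no minimum the log2 fold changes of the 36 genes were those of the main fit, and 28122 genes entered the fit and the adjustment (main 12009). The cause of the TPM count was not tested, though Gm23935 alone took 6.35% of the FPKM sum in siNC replicate 3. Leaving out 1 library gave 7 to 13 lower cilium genes, while 12.3% to 17.4% of all genes were lower. In all, 2424 to 3654 genes were called (main 3650), the lowest total being that without siSox9 replicate 2. The other cilium list had 19 of 111 genes lower with no minimum, 16 of 53 with a minimum of 5 FPKM and 18 of 95 with TPM. The main fit had 29 of 95 lower, beside 17.6% of all genes, and the shares for the others are given above. Of its 95 genes, 1 was higher with TPM, 5 with median centring and 6 with quantile normalization (main 2). Over all genes, 10.2%, 16.3% and 15.1% were higher in these fits (main 12.8%). Without 1 library, 1 to 5 of the list were higher, beside 7.86% to 13.0% of all genes. With the replicate number as a block, 10 cilium genes were lower and 1 higher, and 3262 genes were called in all (15.7% of all genes lower). Same-numbered libraries deviated from their group means with correlations of 0.065, -0.050 and 0.0078, so the numbers were not taken to pair libraries. The 14 called genes kept their sign in every alternative. The median log2 fold change of the cilium genes (main -0.099) was -0.047 with quantile normalization, -0.073 with median centring and -0.077 with TPM. Over all genes it was then 0.010, 0.012 and 0.011 (main -0.014). With a minimum of 5 FPKM it was -0.045 over 13 cilium genes. A pseudocount of 0.1 and limma voom gave -0.13 and -0.12. Log2 fold changes near 0 of genes that never passed changed sign. Under quantile normalization they were 0.042 (Bbs12), 0.034 (Bbs5), 0.021 (Cep290), 0.027 (Evc2), 0.0030 (Ift46), 0.036 (Tctn1) and 0.058 (Tctn3), under median centring 0.0026 (Bbs12), 0.0098 (Bbs5), 0.021 (Evc2) and 0.024 (Tctn3), and with TPM 0.0073 (Bbs5), 0.020 (Evc2) and 0.019 (Tctn3). Without 1 library they ranged from -0.083 to 0.0073 for Bbs12, -0.088 to 0.051 for Bbs5, -0.0057 to 0.084 for Dync2li1, -0.030 to 0.036 for Evc2, -0.048 to 0.080 for Ift20, -0.064 to 0.014 for Tctn1 and -0.080 to 0.038 for Tctn3. The depth behind low genes such as Bbs9, Bbs1 and Nphp4 limits their precision, and exact tests of single ratios cannot pass 0.05 with 3 libraries a group.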
